A study of Homo sapiens with 12 samples.

Results

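The responses of MCF10A cells to both natural ErbB ligands, TGF-alpha and heregulin, were compared with the response to AP1510. The comparison set 9 of the 12 arrays of the series against each other, 3 for each treatment. The 3 arrays of untreated cells served for reference and entered the fit through its estimate of the spread. For each gene, the mean of the TGF-alpha and heregulin group means was set against the AP1510 mean. A gene was called shared when TGF-alpha and heregulin each differed from AP1510 in the same direction at a Benjamini-Hochberg adjusted p of 0.05 or less (limma). By this rule 579 of 18417 genes were shared, 3.14% of those tested. Of these, 236 (1.28%) were higher and 343 (1.86%) lower with both ligands than with AP1510. A fit of the 9 arrays alone gave 199 higher and 300 lower.

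MCF10A is a human breast epithelial line that does not form tumours. All 4 groups carried a full-length human HER2 chimera fused to FKBP and an HA tag, in MCF10A-HER2-FKBP-HA cells. AP1510 is a synthetic compound with a pair of FKBP-binding ends, so it joins tagged receptors to each other without any natural ligand. All cells, the untreated ones included, were moved 24 hours before ligand to medium without serum or EGF that still held hydrocortisone at 500 ng/ml, with insulin at 10 microgram/ml and cholera toxin at 100 ng/ml. RNA of the AP1510, TGF-alpha and heregulin groups was taken 48 hours after ligand. Dishes were seeded in triplicate, so the p-values measure the spread between such dishes and their arrays, which may be technical. The sources used here do not state ligand doses, the vehicle, when untreated cells were harvested, or whether the transfected line is 1 clone. Receptor dimers themselves were not measured.

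TGF-alpha binds EGFR, and heregulin binds HER3 and HER4. HER2 has no known natural ligand and is the preferred partner of the other ErbB receptors, so a natural ligand can recruit it into heterodimers, while a forced dimer holds HER2 alone. Their kinases signal through ERK and PI3K, which in mammary epithelium drive growth and survival. The comparison asks which transcripts differ between cells given a ligand of a partner receptor and cells in which tagged HER2 was cross-linked. Hydrocortisone, present throughout, activates the glucocorticoid receptor, whose targets include ion channel subunits, metallothioneins and regulators of inflammation.

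All values are log2 expression levels, on which a difference of 1 is a doubling. The array medians lay between 5.33 and 5.44 and arrays of 1 group correlated at 0.988 to 0.994. Epithelial identity held on all arrays: 7 of 7 measured epithelial markers, with KRT5 as the highest, stood above 5.97, the median of all genes. Only CD68 among 9 leukocyte markers, PECAM1 among 8 endothelial markers and 3 of 8 fibroblast markers did so. The mean of the fibroblast list was 5.35 to 5.50 on the AP1510 arrays, 5.34 to 5.37 with TGF-alpha and 5.70 to 5.82 with heregulin. Its part in the results was not tested.

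AP1510 replicate 1 stood apart from the other AP1510 arrays. On the first principal component, which held 48.6% of the variance, it scored -2.43 against -12.0 and -14.0 for replicates 2 and 3. TGF-alpha arrays scored 34.0 to 38.3, heregulin arrays -8.5 to -6.49 and untreated arrays -20.3 to -18.7. Across the 579 shared genes it lay nearer to the ligand arrays than the mean of the other AP1510 arrays in 489, by a median of 0.18. Without AP1510 replicate 1, the shared counts were 308 higher and 415 lower. Without AP1510 replicate 2 they were 126 and 189, and without AP1510 replicate 3 they were 140 and 172.

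Most shared differences were modest. Of the shared genes, 43 were at least 2-fold higher and 59 at least 2-fold lower in the ligand mean. The median shared rise was 0.63 with TGF-alpha and 0.52 with heregulin, and the median shared fall was -0.63 and -0.52. In 226 of the 236 higher genes and 333 of the 343 lower genes the 6 ligand arrays did not overlap the 3 AP1510 arrays, as was the case for 9.49% of all genes in either direction. The mean of both ligands was higher than AP1510 for 1250 genes (6.79%) and lower for 1287 (6.99%), and all 579 shared genes were among them. Both single-ligand comparisons used the same AP1510 arrays, so their sharing of genes is not independent evidence. AP1510 itself differed from untreated cells in few genes, 142 higher (0.771%) and 129 lower (0.7%). A difference from AP1510 can therefore also be a difference from untreated cells.

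**Figure D1:**
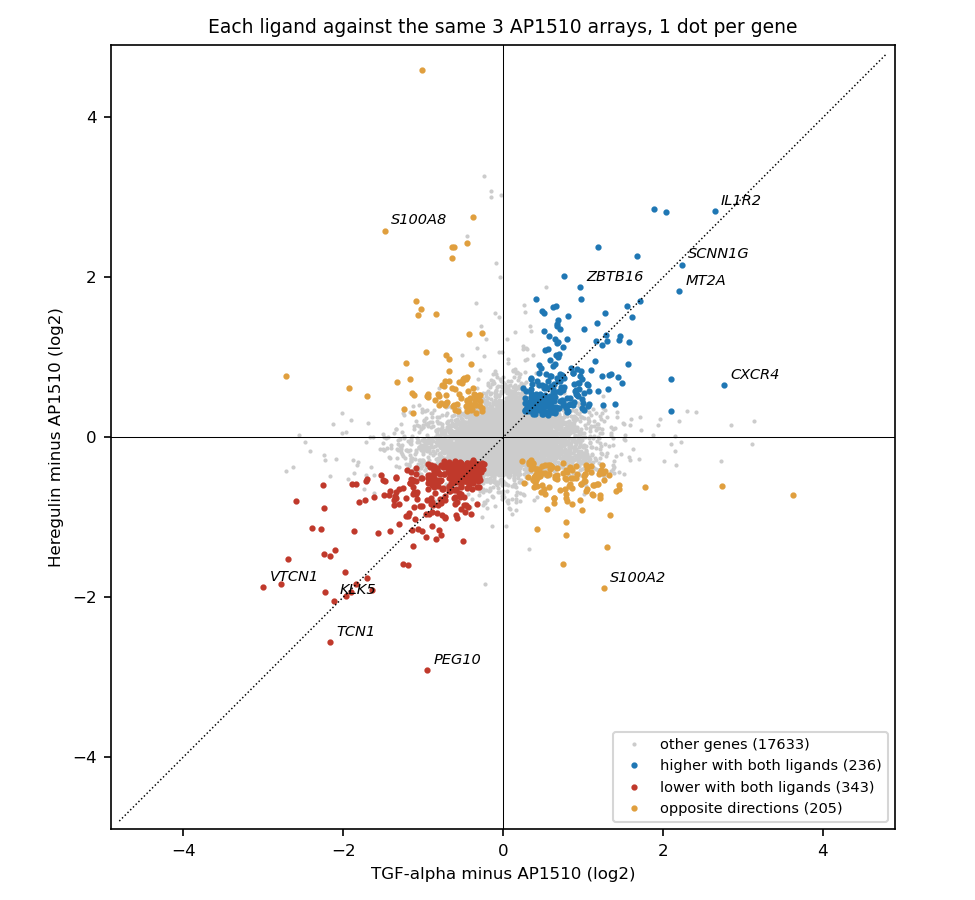
Difference from AP1510 with TGF-alpha (horizontal axis, log2) and with heregulin (vertical axis, log2); each point is 1 of 18417 genes. Blue and red points are the 236 higher and 343 lower shared genes, orange points the 205 genes called in opposite directions, and the remaining 17633 genes are grey. The dotted diagonal marks equal differences with both ligands, with CXCR4 far to the right of it and PEG10 far below.

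The amiloride-sensitive sodium channel of tight epithelia is a classical corticosteroid target, and 1 of its subunits, SCNN1G, was among the largest rises. SCNN1G, the gamma subunit, measured 7.0, 6.99 and 6.84 in untreated cells, 8.28, 7.14 and 7.08 with AP1510, 9.62, 9.85 and 9.73 with TGF-alpha, and 9.74, 9.74 and 9.49 with heregulin. All 6 ligand arrays were above all AP1510 arrays, and AP1510 replicate 1 was the highest of its group. The ligand mean was 4.59-fold higher, a log2 difference of 2.20 ± 0.19 (SE of the fit, 3 arrays per group, adjusted p = 1.3e-06), and 2.59 without AP1510 replicate 1. TGF-alpha and heregulin differed from each other by -0.08 (heregulin minus TGF-alpha, adjusted p = 0.86). SCNN1B, the beta subunit, rose less, by 0.56 ± 0.12 (adjusted p = 0.0035). Its AP1510 values of 9.96, 9.49 and 9.32 were already above the untreated 8.45, 8.69 and 8.45, and 5 of 12 refits that left out 1 array lost its shared call. SCNN1A, the alpha subunit, was higher with heregulin by 0.44 (adjusted p = 0.0073), while TGF-alpha differed from AP1510 by -0.06 (adjusted p = 0.76).

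Of 13 measured genes of sodium channel and transport, 3 were shared and higher (1.28% of all genes) and none lower (1.86%). The median ligand difference was 0.21, against 0.02 over all genes. The other shared gene was USP2, a deubiquitinase that acts on the channel, 2.05-fold higher (1.03 ± 0.17, adjusted p = 0.00052). The count was 4 without AP1510 replicate 1, 2 without TGF-alpha replicate 1 or 3, and 1 without AP1510 replicate 2, AP1510 replicate 3 or TGF-alpha replicate 2. SGK1, the kinase that holds the channel at the membrane, was higher with heregulin by 0.81 (adjusted p = 3.6e-05) and differed with TGF-alpha by 0.17 (adjusted p = 0.23). NEDD4L, the ubiquitin ligase that removes the channel, was 0.68 higher with TGF-alpha (adjusted p = 0.0030) and measured 0.45 above AP1510 with heregulin (adjusted p = 0.086).

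**Figure D2:**
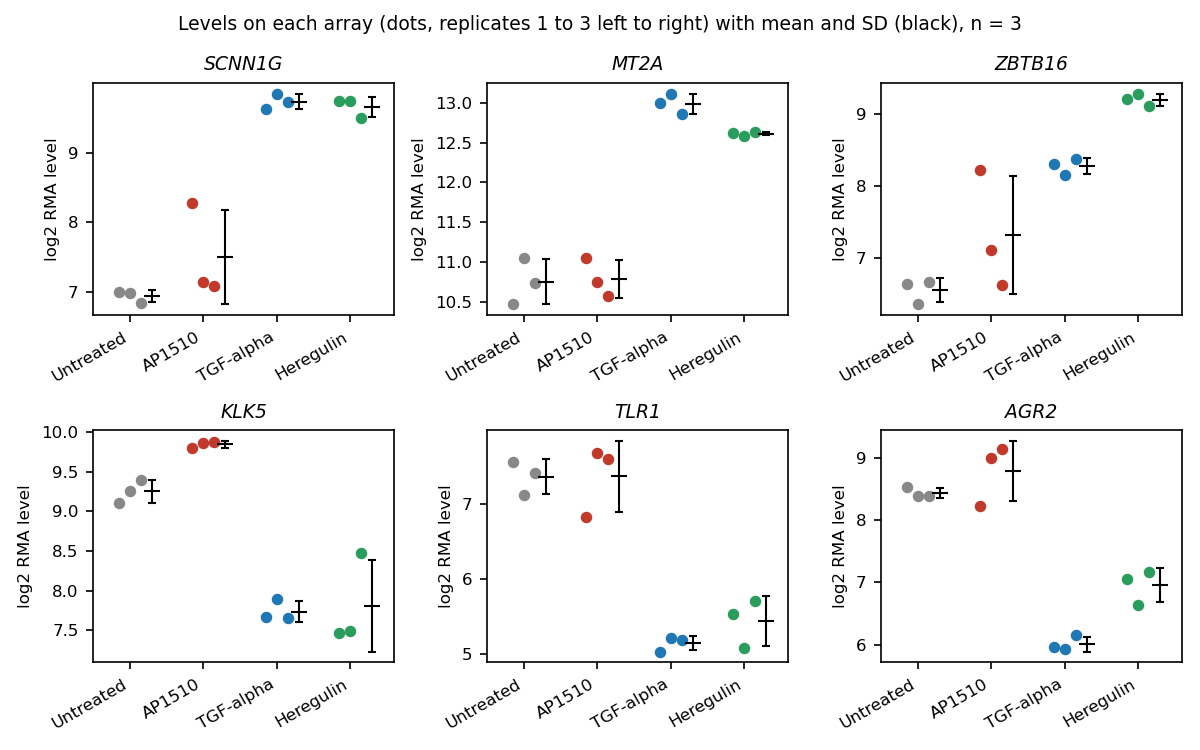
Log2 expression of SCNN1G, MT2A, ZBTB16, KLK5, TLR1 and AGR2 on each of the 12 arrays, by group, with the mean and SD of the 3 arrays in black. For SCNN1G and MT2A all ligand arrays lie above the AP1510 arrays, for ZBTB16 AP1510 replicate 1 at 8.21 falls among the TGF-alpha arrays, and for KLK5, TLR1 and AGR2 the ligand arrays lie below.

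Genes known to be induced by glucocorticoids rose with both ligands more often than they fell. Of 23 measured, 7 were shared and higher (1.28% of all genes) and 0 lower (1.86%). Their median ligand difference was 0.37. The 7 were ZBTB16, STOM, ALOX15B, TSC22D3, PER1, KLF9 and ERRFI1. The count ranged from 5, without AP1510 replicate 3, to 9, without AP1510 replicate 1. Against AP1510 alone, heregulin raised 14 of the 23 (3.27% of all genes) and TGF-alpha raised 9 (11.2% of all genes), while 1 and 3 were lower (3.95% and 10.4% of all genes). Hydrocortisone was in the medium of every group, and receptor activity was not measured.

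ZBTB16, a zinc finger repressor strongly induced by glucocorticoids in many cells, measured 6.64, 6.36 and 6.66 untreated, 8.21, 7.10 and 6.62 with AP1510, 8.30, 8.15 and 8.38 with TGF-alpha, and 9.21, 9.27 and 9.11 with heregulin. Heregulin arrays lay above all AP1510 arrays, but AP1510 replicate 1 overlapped the TGF-alpha arrays. The ligand mean was 2.68-fold higher (1.42 ± 0.22, adjusted p = 0.00042), and heregulin exceeded TGF-alpha by 0.92 (adjusted p = 0.017). The difference was 1.87 without AP1510 replicate 1, and the shared call was lost without AP1510 replicate 2 or 3, where the larger adjusted p of the pair of ligands reached 0.071.

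STOM, a membrane scaffold protein of lipid rafts, measured 8.69, 8.75 and 8.84 untreated, 8.72, 8.17 and 8.29 with AP1510, 9.0, 9.08 and 8.96 with TGF-alpha and 10.13, 10.04 and 9.91 with heregulin. Its ligand mean was 2.18-fold above AP1510 (1.13 ± 0.10, adjusted p = 2.3e-06), with heregulin 1.01 above TGF-alpha (adjusted p = 9.2e-06). ALOX15B, a lipoxygenase, rose 2.11-fold and was 0.78 higher with heregulin than with TGF-alpha (adjusted p = 0.00046). AP1510 had ALOX15B above untreated by 0.89 (adjusted p = 0.0040). TSC22D3, the leucine zipper protein GILZ that relays anti-inflammatory effects of glucocorticoids, measured 8.37, 7.61 and 7.69 with AP1510 and 8.67 to 9.14 on the ligand arrays. It was 2.08-fold higher (1.05 ± 0.14, adjusted p = 9.2e-05), and the ligands differed by -0.20 (adjusted p = 0.46). PER1, a clock repressor with a known glucocorticoid response, was 2.03-fold higher (1.02 ± 0.16, adjusted p = 0.00044), with AP1510 replicate 1 at 7.44 and replicates 2 and 3 at 6.54 and 6.42.

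Among 7 measured corticosteroid receptors and enzymes, 1 was shared (3.14% of all genes). H6PD, which supplies the cofactor that regenerates cortisol, was 1.78-fold higher (0.83 ± 0.11, adjusted p = 0.00012). Against untreated cells H6PD differed by 0.25 with TGF-alpha (adjusted p = 0.21) and 0.79 with heregulin (adjusted p = 0.00099). HSD11B1, also in this list, was dim, with group means of 3.53 to 3.68, and was not shared. HSD11B2, the enzyme that inactivates cortisol, measured 7.14, 7.74 and 6.90 untreated, 10.43, 9.58 and 9.59 with AP1510, 8.26, 8.09 and 8.10 with TGF-alpha, and 9.29, 9.32 and 9.57 with heregulin. The TGF-alpha difference from AP1510 was -1.71 (adjusted p = 1.7e-05). The heregulin difference of -0.47 did not pass (adjusted p = 0.23), so HSD11B2 was not shared, and both ligand groups lay above the untreated arrays. NR3C1, the glucocorticoid receptor, differed by -0.18 with TGF-alpha and -0.28 with heregulin (adjusted p = 0.28 and 0.12), and NR3C2, the mineralocorticoid receptor, was lower with TGF-alpha by -0.80 (adjusted p = 7.6e-05) and measured -0.38 with heregulin (adjusted p = 0.054).

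Metallothioneins, small cysteine-rich proteins that bind zinc and copper, had the largest share of shared genes among the 29 lists examined. Of 14 measured metallothioneins and zinc transporters, 8 were shared and higher (1.28% of all genes) and 0 lower (1.86%). The median ligand difference was 0.76. The count stayed at 8 or 9 when any 1 array was left out. Zinc acts on these genes through MTF1, which binds metal response elements in their promoters, and glucocorticoids can induce several of them. To show what these promoters can hold, the 250 bases before the start of 3 of them are given 5′ to 3′ (RefSeq, GRCh38.p14, plus strand), chosen because they held the most matches among the 5 shared metallothioneins matched to a promoter window. Capitals mark each match to the core of the metal response element, searched as TGCACNC and TGCGCNC on both strands. The windows are MT2A at chr16:56608334-56608583, MT1H at chr16:56669564-56669813 and MT1X at chr16:56682220-56682469.
MT2A: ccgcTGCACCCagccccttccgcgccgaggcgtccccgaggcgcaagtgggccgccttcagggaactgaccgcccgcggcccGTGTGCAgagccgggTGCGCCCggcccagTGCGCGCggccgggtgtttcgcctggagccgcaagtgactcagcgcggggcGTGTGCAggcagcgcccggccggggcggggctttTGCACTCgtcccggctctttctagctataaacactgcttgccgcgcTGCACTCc
MT1H: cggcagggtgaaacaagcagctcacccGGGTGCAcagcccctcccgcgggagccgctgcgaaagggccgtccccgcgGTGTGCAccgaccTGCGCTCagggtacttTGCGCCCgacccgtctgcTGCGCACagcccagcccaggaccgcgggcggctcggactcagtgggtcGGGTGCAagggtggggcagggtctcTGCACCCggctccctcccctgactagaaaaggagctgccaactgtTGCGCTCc
MT1X: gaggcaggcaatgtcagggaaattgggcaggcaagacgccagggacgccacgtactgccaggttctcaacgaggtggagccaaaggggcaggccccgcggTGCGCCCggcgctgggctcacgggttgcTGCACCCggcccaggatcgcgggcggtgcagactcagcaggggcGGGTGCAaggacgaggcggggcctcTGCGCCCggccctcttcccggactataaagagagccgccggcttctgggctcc
The core matched 7 times in MT2A, 8 times in MT1H and 4 times in MT1X, and no match overlapped another. MT1B and MT4, which are not printed, each held 3. At least 1 match was present in 24.8% of the 35116 promoter windows of that length, and 4 or more in 130 windows (0.37%). Of 285 windows of 183 shared higher genes, 30.5% held a match and 5 held 4 or more, in MT1H, MT1X, MT2A and RABGGTA. Of 469 windows of 277 shared lower genes, 28.8% held a match and 3 held 4 or more. The glucocorticoid receptor half-site AGAACA, searched on both strands, was in 12.4% of all windows, 10.2% of those of shared higher genes and 9.38% of those of shared lower genes. Such matches describe letters and do not show binding.

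MT2A, the most widely expressed human metallothionein, measured 10.47, 11.04 and 10.74 untreated, 11.05, 10.74 and 10.57 with AP1510, 13.00, 13.11 and 12.86 with TGF-alpha, and 12.62, 12.59 and 12.63 with heregulin. AP1510 and untreated arrays overlapped, and all ligand arrays were well above them. The ligand mean was 4.04-fold higher than AP1510 (2.01 ± 0.12, adjusted p = 3.7e-08). Heregulin minus TGF-alpha was -0.38 (adjusted p = 0.064).

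MT1X, another copper and zinc binder, measured 9.06, 9.10 and 8.87 untreated, 8.53, 8.31 and 8.5 with AP1510, 9.74, 9.60 and 9.55 with TGF-alpha, and 10.80, 10.98 and 10.68 with heregulin. The 4 groups did not overlap. Its ligand mean was 3.43-fold higher (1.78 ± 0.09, adjusted p = 1.5e-08), heregulin exceeded TGF-alpha by 1.19 (adjusted p = 3.5e-07), and AP1510 was below untreated by -0.57 (adjusted p = 0.010, as were 0.7% of all genes). MT1E rose by 1.71 with each ligand, with a heregulin minus TGF-alpha difference of -0.01 (adjusted p = 0.98). It measured 7.47, 7.18 and 7.23 with AP1510 and 8.85 to 9.11 on the ligand arrays. MT1G rose 3.03-fold, MT1F 2.66-fold and the pseudogene MT1P3 2.94-fold, with adjusted p from 2.4e-08 to 8.4e-08. MT1B, MT1H and MT4, all below the median of all genes with AP1510, rose 1.7-fold, 1.83-fold and 1.69-fold. Near-identical copies of this family may hybridise to each other's probes, so the separate values of its members are uncertain.

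Other genes of zinc handling were not shared. MT1M measured 0.54 with TGF-alpha and 0.64 with heregulin above AP1510 without passing (adjusted p = 0.072 and 0.073), and MT3, the brain form, measured 0.19 and 0.21 (adjusted p = 0.20 and 0.22). SLC39A10, a zinc importer, moved in opposite ways, 0.64 higher with TGF-alpha and -0.76 with heregulin. SLC30A1, the zinc exporter that is itself a known MTF1 target, was lower with TGF-alpha by -0.48 (adjusted p = 0.0013) and measured 0.29 with heregulin (adjusted p = 0.081).

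**Figure D3:**
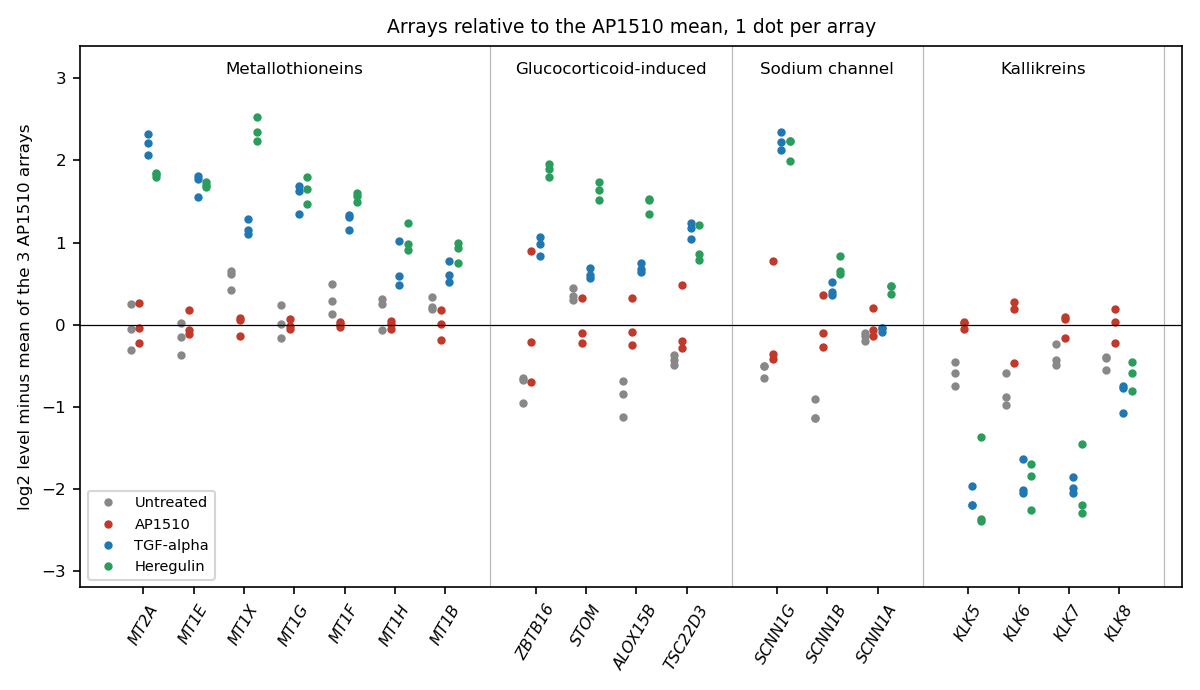
Log2 level of each array minus the mean of the 3 AP1510 arrays, for 18 metallothionein, glucocorticoid-induced, sodium channel and kallikrein genes, with 1 dot per array and the treatments in separate colours. In every metallothionein shown all ligand dots lie above all AP1510 dots, in every kallikrein shown they lie below, and in ZBTB16 and SCNN1G the highest AP1510 dot is replicate 1.

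IL1R2, a decoy receptor that captures interleukin-1 without signalling, measured 6.23, 6.70 and 6.04 untreated, 7.12, 6.14 and 6.35 with AP1510, 9.15, 9.30 and 9.10 with TGF-alpha, and 9.39, 9.29 and 9.41 with heregulin. It was the largest rise of all shared genes with non-overlapping arrays, 6.66-fold (2.74 ± 0.17, adjusted p = 6.5e-08), and the ligands differed by 0.18 (adjusted p = 0.61). SERPINA3, an acute-phase protease inhibitor, measured 6.62, 6.63 and 6.17 untreated, 6.88, 6.81 and 6.51 with AP1510, 8.64, 9.0 and 8.66 with TGF-alpha, and 9.74, 9.54 and 9.35 with heregulin. It was 5.37-fold higher in the ligand mean (2.42 ± 0.13, adjusted p = 1.5e-08), and heregulin exceeded TGF-alpha by 0.78 (adjusted p = 0.00083).

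RIPOR2, an inhibitor of the small GTPase RhoA, measured 5.24, 4.87 and 4.82 untreated, 7.44, 5.60 and 5.50 with AP1510, 8.01, 8.12 and 8.06 with TGF-alpha, and 9.21, 9.09 and 8.80 with heregulin. AP1510 replicate 1 lay closer to the TGF-alpha arrays than to the other AP1510 arrays. The ligand mean was 5.16-fold higher (2.37 ± 0.29, adjusted p = 5.2e-05), and the difference was 3.0 without that array. SLC7A2, a transporter of arginine and lysine, was at 4.41 to 4.75 with AP1510 and overlapped the untreated 4.51 to 4.71. It measured 6.22, 6.34 and 6.22 with TGF-alpha and 7.21, 6.86 and 6.48 with heregulin, 3.93-fold higher in the mean (1.98 ± 0.12, adjusted p = 6.7e-08).

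CXCR4, the receptor of the chemokine CXCL12, differed from AP1510 mostly with TGF-alpha. It measured 5.4, 4.82 and 4.74 with AP1510, 7.56, 7.95 and 7.76 with TGF-alpha, and 5.71, 5.59 and 5.62 with heregulin. TGF-alpha was 6.79-fold and heregulin 1.57-fold above AP1510, and the ligands differed by -2.11 (adjusted p = 1.0e-07). Its shared call was lost without AP1510 replicate 2, AP1510 replicate 3 or heregulin replicate 1, where the larger adjusted p reached 0.11.

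Kallikreins are serine proteases, some of which loosen the junctions of shedding squamous cells. Of 15 measured kallikrein genes, a family tallied after its values were seen, 5 were shared and lower (KLK5, KLK6, KLK7, KLK8 and KLK10). Another 10 were not shared, and 0 were shared and higher. Over all genes, 1.86% were shared and lower and 1.28% shared and higher. KLK5, which activates the other members, measured 9.10, 9.26 and 9.40 untreated, 9.80, 9.87 and 9.88 with AP1510, 7.66, 7.89 and 7.65 with TGF-alpha, and 7.46, 7.49 and 8.48 with heregulin. Heregulin replicate 3 was the highest ligand array and still lay below every AP1510 and untreated array. The ligand mean was 4.23-fold lower (-2.08 ± 0.17, adjusted p = 7.0e-07). KLK7, the chymotrypsin-like member, was at 8.73, 8.99 and 8.97 with AP1510 and 6.60 to 7.44 on the ligand arrays, 3.93-fold lower (-1.97 ± 0.14, adjusted p = 2.4e-07). KLK6 was 3.77-fold lower and KLK8 1.67-fold lower, both with no overlap. The ligands differed by 0.07, -0.01 and -0.03 in KLK5, KLK7 and KLK6 (adjusted p = 0.85, 0.97 and 0.94). KLK6 was also higher with AP1510 than in untreated cells, by 0.81 (adjusted p = 0.040, as were 0.771% of all genes).

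Squamous differentiation as a whole was mixed. Of 30 measured genes, 4 were shared and lower (KLK5, KLK7, KLK10 and DSC2) and 2 were higher, against 1.86% and 1.28% of all genes. SPRR2A, a cornified envelope precursor, rose 2.25-fold and DSG3, a desmosomal cadherin of basal keratinocytes, rose 1.92-fold (adjusted p = 9.8e-06 and 3.1e-05). Counting the shared genes, heregulin raised 11 and lowered 4 of the 30 (3.27% and 3.95% of all genes), and TGF-alpha raised 2 and lowered 11 (11.2% and 10.4% of all genes). The ligands were called in opposite directions in 3.

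Luminal markers were more often lower: 4 of 16 measured were shared and lower (AGR2, CD24, FOXA1 and PROM1) and 1, the secretory regulator XBP1, was higher. Over all genes, 1.86% were shared and lower and 1.28% shared and higher. The median ligand difference of the list was -0.07. AGR2, a disulfide isomerase of mucus-secreting cells, measured 8.53, 8.40 and 8.40 untreated, 8.23, 8.99 and 9.14 with AP1510, 5.95, 5.93 and 6.15 with TGF-alpha, and 7.06, 6.64 and 7.17 with heregulin. It was 4.95-fold lower (-2.31 ± 0.16, adjusted p = 1.4e-07), more so with TGF-alpha by 0.95 (adjusted p = 0.0011). CD24, a surface glycoprotein used to sort luminal cells, was 2.32-fold lower in the ligand mean (-1.21 ± 0.11, adjusted p = 2.1e-06), by -1.84 with TGF-alpha and -0.58 with heregulin. FOXA1, a pioneer factor for oestrogen receptor binding, was lower by -0.71 ± 0.12 (adjusted p = 0.00070), and 8 of 12 refits that left out 1 array lost its shared call. The lower count fell to 1 without AP1510 replicate 2 and to 2 without any of AP1510 replicate 3, untreated replicate 1, TGF-alpha replicates 1 and 2, and heregulin replicates 1 and 3.

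**Figure D4:**
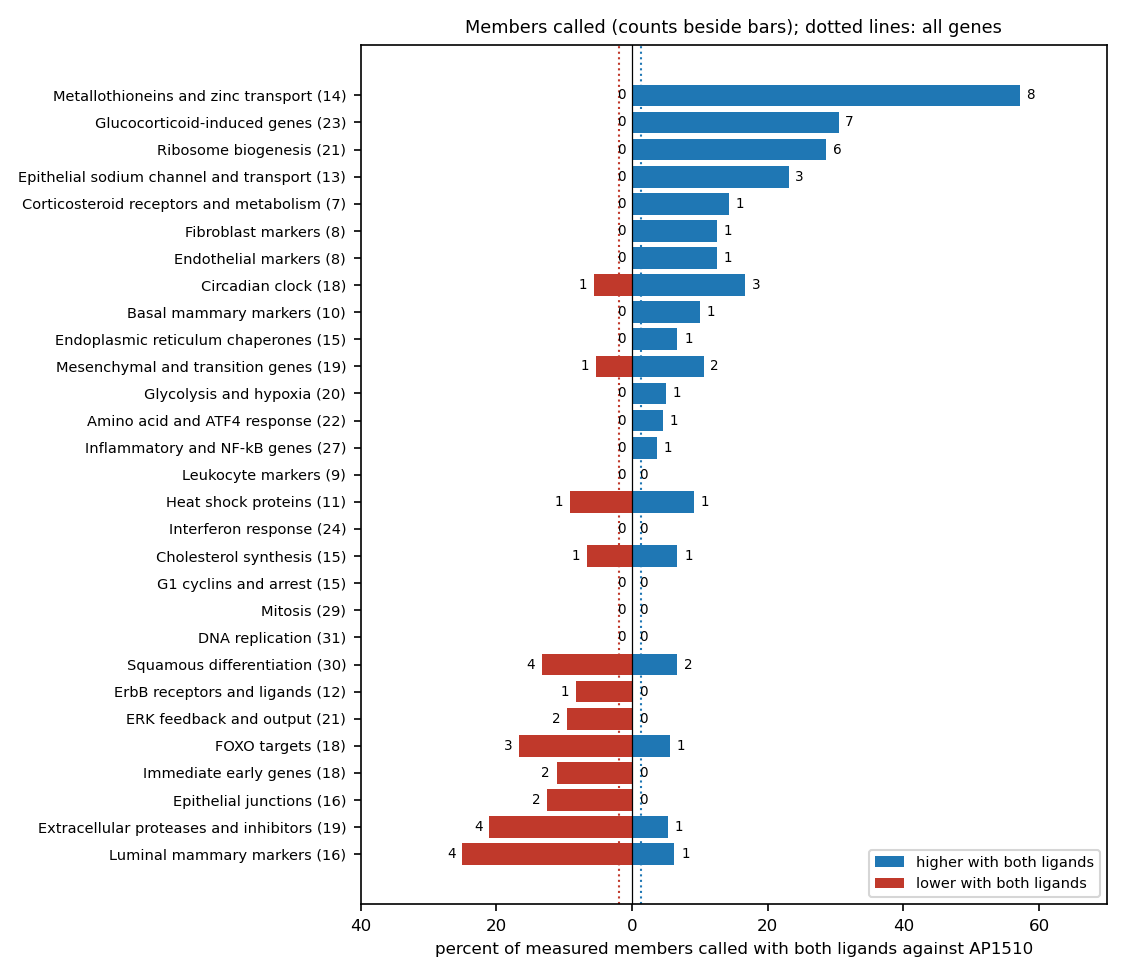
Percent of measured members of each of 29 gene lists called higher (blue, to the right) or lower (red, to the left) with both ligands against AP1510, with the number of members measured in parentheses and the number called beside each bar. Dotted lines mark 1.28% and 1.86%, the shares of all genes; the longest bars are the 8 of 14 metallothionein and zinc genes and, to the left, the 4 of 16 luminal markers.

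Further large falls were spread over surface receptors, transporters and secreted proteins. VTCN1, the inhibitory checkpoint ligand B7-H4 of breast epithelium, measured 8.96, 8.57 and 8.67 untreated, 7.17, 8.13 and 8.29 with AP1510, 4.65, 5.18 and 4.77 with TGF-alpha, and 5.90, 5.96 and 6.12 with heregulin. It was the largest fall with non-overlapping arrays, 5.41-fold (-2.44 ± 0.19, adjusted p = 4.7e-07), and was lower with TGF-alpha than with heregulin by 1.13 (adjusted p = 0.0012). TCN1, a vitamin B12 carrier of secretory epithelium, measured 9.05, 8.86 and 9.20 untreated, 8.26, 8.98 and 9.16 with AP1510, 6.69, 6.74 and 6.47 with TGF-alpha and 6.08, 5.85 and 6.78 with heregulin. Its ligand mean was 5.15-fold lower (-2.37 ± 0.19, adjusted p = 7.4e-07), and the ligands differed by -0.40 (adjusted p = 0.25).

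SLC4A11, a membrane transporter of the bicarbonate transporter family, was 4.30-fold lower (-2.10 ± 0.15, adjusted p = 2.7e-07). It measured 9.61, 9.34 and 9.38 untreated, 8.86, 9.70 and 9.68 with AP1510 and 6.45 to 7.93 on the ligand arrays. TGF-alpha took it lower than heregulin did, by 1.17 (adjusted p = 0.00014). LXN, an inhibitor of carboxypeptidases, was 3.61-fold lower (-1.85 ± 0.11, adjusted p = 4.7e-08), also further with TGF-alpha, by 0.78 (adjusted p = 0.00031). Between AP1510 and untreated cells LXN did not pass (-0.11, adjusted p = 0.85). CA2, a carbonic anhydrase, measured 8.55, 8.41 and 8.46 untreated, 8.91, 9.27 and 9.41 with AP1510, 7.48, 7.42 and 7.11 with TGF-alpha, and 8.20, 7.89 and 7.99 with heregulin. AP1510 was above untreated by 0.72 (adjusted p = 0.010), and the ligand mean was 2.86-fold below AP1510 (-1.51 ± 0.11, adjusted p = 2.8e-07).

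PEG10, an imprinted gene derived from a retrotransposon, was the case opposite to CXCR4, with most of its fall under heregulin. It measured 9.27 to 9.40 untreated, 9.47, 9.91 and 9.90 with AP1510, 8.73, 8.79 and 8.92 with TGF-alpha, and 6.80, 6.54 and 7.21 with heregulin. TGF-alpha was 1.93-fold and heregulin 7.53-fold below AP1510, and the ligands differed by -1.96 (adjusted p = 8.1e-08).

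TLR1 and TLR6, receptors that pair with TLR2 to sense bacterial lipopeptides, both fell. TLR1 measured 7.56, 7.12 and 7.42 untreated, 6.83, 7.68 and 7.60 with AP1510, 5.03, 5.21 and 5.19 with TGF-alpha, and 5.53, 5.08 and 5.71 with heregulin. All ligand arrays were below all others, and the ligand mean was 4.22-fold below AP1510 (-2.08 ± 0.17, adjusted p = 8.2e-07). TLR6 was 2.63-fold lower (-1.39 ± 0.12, adjusted p = 1.1e-06). TNFRSF11B, the soluble decoy receptor osteoprotegerin, measured 5.59, 6.90 and 6.75 with AP1510 and 4.28 to 4.82 on the ligand arrays, 3.56-fold lower (-1.83 ± 0.20, adjusted p = 1.3e-05). TNFSF10, the death ligand TRAIL that osteoprotegerin binds, was 3.24-fold lower (-1.7 ± 0.15, adjusted p = 2.1e-06), by -2.60 with TGF-alpha and -0.80 with heregulin. Its shared call was lost in 2 of 12 refits that left out 1 array.

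Extracellular proteases and their inhibitors gave 4 shared lower genes of 19 measured (MMP13, PLAU, MMP2 and TIMP3) and 1 higher (TIMP1), against 1.86% and 1.28% of all genes. MMP13, a collagenase, measured 4.94, 5.51 and 5.90 with AP1510 and was 2.61-fold lower with the ligands (-1.38 ± 0.22, adjusted p = 0.00042). MMP2, a gelatinase, was 1.64-fold lower, and PLAU, the urokinase that activates plasminogen, 1.82-fold lower (adjusted p = 0.00099 and 0.0019). AP1510 was itself below untreated in PLAU by -0.84 and in TIMP3 by -0.85 (adjusted p = 0.037 and 0.0022). In MMP2 and MMP13 it measured -0.45 and -0.05 without passing (adjusted p = 0.18 and 0.97). The lower count fell to 2 without AP1510 replicate 2 or 3.

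Clock genes gave 3 shared higher genes of 18 measured (PER1, NFIL3 and NPAS2) and 1 lower, against 1.28% and 1.86% of all genes. The lower one, BHLHE41, a repressor of the clock activators, measured 8.30, 8.32 and 8.39 untreated, 8.12, 8.59 and 8.74 with AP1510, 6.66, 6.63 and 6.65 with TGF-alpha, and 6.76, 6.39 and 6.81 with heregulin. It was 3.56-fold lower (-1.83 ± 0.12, adjusted p = 9.0e-08), and the ligands differed by 0.01 (adjusted p = 0.98). NFIL3, a repressor in the output of the clock, was 2.07-fold higher (1.05 ± 0.10, adjusted p = 4.1e-06). NPAS2, a clock activator, was higher by 0.47 ± 0.09, but its shared call, with a larger adjusted p of 0.046, was lost in 11 of 12 refits, in which the list had 2 higher genes. The lower count was 2 without AP1510 replicate 1. The ligand values were likewise close for SGPP2, a sphingosine phosphatase 2.43-fold above AP1510, and ATP6V0D2, a proton pump subunit 2.22-fold below it. Each had a ligand difference of -0.01 (adjusted p = 0.98). ATP6V0D2 was dim, at 3.58, 4.24 and 4.48 with AP1510 and 3.19, 3.32 and 3.34 untreated. AP1510 was above untreated by 0.82 (adjusted p = 0.018). TGF-alpha and heregulin each measured -0.33 against untreated without passing (adjusted p = 0.18 and 0.27).

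Over all 579 shared genes, TGF-alpha gave the larger difference from AP1510 in 366 and heregulin in 213. The direct comparison of the ligands called 185 of the 579 different, where 9.88% of all genes were higher and 11.8% lower with heregulin than with TGF-alpha. For the remaining 394 no difference was called, which does not show that the ligands act alike.

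None of the measured DNA replication and mitosis genes was shared, against 3.14% of all genes, a share that gives few in lists this short. TGF-alpha was above AP1510 in 30 of 31 measured DNA replication genes and 29 of 29 mitosis genes (11.2% of all genes). Heregulin was below AP1510 in 9 and 3 of them (3.95% of all genes) and above in 0 (3.27% of all genes). Ribosome biogenesis genes were higher in all 21 measured with TGF-alpha and in 6 with heregulin, against 11.2% and 3.27% of all genes. These 6 were shared, against 1.28% of all genes. The median ligand difference was 0.48, and the shared count was 11 without AP1510 replicate 1, 1 without AP1510 replicate 2 and 2 without AP1510 replicate 3 or heregulin replicate 3. WDR43, a nucleolar factor of small-subunit assembly, rose 1.56-fold (0.64 ± 0.10, adjusted p = 0.00050) and DKC1, the pseudouridine synthase dyskerin, 1.55-fold (0.63 ± 0.10, adjusted p = 0.00061), with shared calls lost in 4 and 9 of 12 refits that left out 1 array.

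Immediate early genes gave 2 shared lower genes of 18 (1.86% of all genes). These were the transcription factors EGR3 (2.06-fold lower, adjusted p = 0.00034) and NR4A2 (2.36-fold lower, adjusted p = 9.8e-06). In EGR3 the ligand and AP1510 arrays overlapped, and AP1510 was itself below untreated by -1.15 (adjusted p = 0.0051). In NR4A2 AP1510 minus untreated was -0.02 (adjusted p = 0.98), and the list median was -0.55. Against AP1510, TGF-alpha lowered 12 of the 18 (10.4% of all genes). The shared count was 7 without AP1510 replicate 1, 1 without heregulin replicate 1 and 0 without AP1510 replicate 2, AP1510 replicate 3 or heregulin replicate 2. Among 21 genes of ERK output and feedback, 2 were shared and lower (1.86% of all genes). They were SPRY2, a feedback inhibitor (1.52-fold, adjusted p = 0.00031), and IER3, an early ERK target (1.88-fold, adjusted p = 0.0014). TGF-alpha raised 11 of the 21 above AP1510 (11.2% of all genes) and heregulin lowered 7 (3.95% of all genes). Most of this list was thus not shared. The shared count was 4 without AP1510 replicate 1 and 1 in 8 of the other refits.

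The ErbB system itself gave 1 shared gene of 12, NRG4, a ligand of HER4, which was 1.41-fold lower (-0.49 ± 0.10, adjusted p = 0.0029). The count was 2 without AP1510 replicate 1 and 0 without AP1510 replicate 3, heregulin replicate 1 or heregulin replicate 2, and NRG4 lost its call in 4 of 12 refits, with a larger adjusted p of up to 0.124. ERBB2 was 0.59 higher with TGF-alpha (adjusted p = 6.0e-05) and differed by 0.05 with heregulin (adjusted p = 0.79). ERBB3 was lower with TGF-alpha by -0.82 (adjusted p = 2.1e-05) and differed by -0.03 with heregulin (adjusted p = 0.92). Whether the probes for ERBB2 read the chimera as well as the endogenous transcript was not tested.

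In 205 genes, 1.11% of those tested, TGF-alpha and heregulin were called on opposite sides of AP1510. Inflammatory genes made up 11 of these, out of 27 measured. Of the 27, TGF-alpha was below AP1510 in 14 (10.4% of all genes) and heregulin above it in 16 (3.27% of all genes). Only the chemokine CCL20 was shared among them (1.79-fold higher, adjusted p = 0.00050), where 1.28% of all genes were shared and higher. S100A8, an alarmin subunit, measured 8.97, 9.63 and 9.60 with AP1510, 8.03, 8.07 and 7.67 with TGF-alpha, and 12.15, 11.84 and 11.97 with heregulin. It was 2.79-fold below AP1510 with TGF-alpha and 6.0-fold above it with heregulin (adjusted p = 3.5e-06 and 3.1e-08). CXCL1, a neutrophil chemokine, TNFAIP3, an inhibitor of NF-kB, and KRT10, a keratin of suprabasal keratinocytes, parted in the same way, by -1.08, -1.07 and -1.02 with TGF-alpha and 1.71, 1.53 and 1.61 with heregulin. S100A2, a calcium-binding protein of basal keratinocytes, and EVI2B, a membrane protein, parted the other way, by 1.26 and 1.29 with TGF-alpha and -1.88 and -1.38 with heregulin. In such genes the mean of both ligands hides large differences: for EVI2B it was -0.04 ± 0.15 (adjusted p = 0.91). Against untreated cells, KRT10 was higher with AP1510 by 0.92 (adjusted p = 0.00043) and differed by -0.10 with TGF-alpha (adjusted p = 0.57). CXCL1 and S100A8 were lower than untreated with AP1510, by -0.75 and -1.07 (adjusted p = 0.0057 and 0.0024). With TGF-alpha they were lower by -1.84 and -2.55 (adjusted p = 2.3e-08 and 7.9e-09).

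Some shared genes lie next to each other in the order of the genes tested. By the RefSeq order of GRCh38.p14, 61 of the 577 placed shared genes formed 24 runs of at least 2 neighbours moving the same way, picked out after their values were seen. Only the 18389 tested genes with a position were ordered, so genes not tested may lie between such neighbours. How many runs would arise by chance was not computed. The longest was the metallothionein run on chromosome 16 (MT1JP, MT1DP, MT1B, MT1F, MT1G, MT1H, MT1IP and MT1X). KLK5 to KLK8 formed a run of 4 on chromosome 19, USP31, SCNN1G and SCNN1B a run of 3 on chromosome 16, and AKR1C1, AKR1C2 and AKR1C3, reductases of steroids and aldehydes, a run of 3 on chromosome 10. In all, 7 runs held 3 or more genes. Those not named here, on chromosomes 2, 3 and 6, held lower genes with no shared name stem. The AKR1C genes rose 1.48-fold, 1.41-fold and 1.68-fold and, like metallothioneins and kallikreins, are related copies whose probes may share targets. TLR1 and TLR6 were neighbours on chromosome 4.

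At the edge of the shared call, FEZ2 and ZNF117 had a larger adjusted p of 0.0499 and 0.0495 and were just inside, and SMUG1 and BRMS1 had 0.0501 and 0.0504 and were just outside.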

How the data were processed

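Expression was measured on Affymetrix arrays, and the authors deposited log2 values made with RMA, per the submitters' processing notes, which give no version. Of 33297 probe sets, 19460 carried 1 gene symbol, 1754 several and 12083 none in the platform annotation, and 19429 matched a GRCh38.p14 gene by Entrez identifier. For the 769 genes with several probe sets, the one with the highest mean was used, which left 18417 genes. The 12 arrays were fitted in 1 model with a mean per group (limma 3.58.1, R 4.3.3), without covariates, and p-values were two-sided and adjusted by Benjamini-Hochberg over all genes. The number of arrays, 3 per group, limits the precision, and the residual degrees of freedom were 8. The genes, gene lists and markers were chosen with earlier results of these data known, so no list is independent evidence of its direction. Genes named are the 12 largest rises and falls among shared genes whose arrays did not overlap, SCNN1G, MT2A and ZBTB16, and up to 4 shared genes per list. Also named are up to 6 genes that best met each further rule, genes at the threshold and a few fixed pathway genes. The further rules were ligands opposite, ligands alike, and AP1510 and both ligands on opposite sides of untreated, each passing. Neighbouring runs, the count of kallikreins, KLF9, ERRFI1, KLK10, DSC2, PROM1 and TIMP1 were added after values were seen. Alternatives changed the samples fitted, array weights, normalization, probe set choice, dim genes, moderation, pooling of ligands, a minimum size and each array in turn.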

Additional observations from a re-analysis of the deposited data

Results flagged for a closer look

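The direct comparison of heregulin with TGF-alpha separated the ligands for 45 of the genes named, by an adjusted p of 0.05 or less in limma over all genes. Values are heregulin minus TGF-alpha, log2. Genes called on opposite sides of AP1510 had these values: S100A8 4.07, CXCL1 2.79, KRT10 2.63, TNFAIP3 2.60, EVI2B -2.67, S100A2 -3.14 and SLC39A10 -1.40.

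Among genes higher with both ligands than with AP1510, heregulin was the higher in MT1X by 1.19, STOM by 1.01, ZBTB16 by 0.92, SERPINA3 by 0.78, ALOX15B by 0.78, SPRR2A by 0.71, USP2 by 0.65, SLC7A2 by 0.59, H6PD by 0.54, DSG3 by 0.38 and MT1F by 0.28. TGF-alpha was the higher in CXCR4, with a value of -2.11, NFIL3 at -0.55, DKC1 at -0.43 and AKR1C3 at -0.32.

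Among genes lower with both ligands than with AP1510, TGF-alpha was the lower in TNFSF10 by 1.80, NR4A2 by 1.31, CD24 by 1.26, SLC4A11 by 1.17, VTCN1 by 1.13, AGR2 by 0.95, LXN by 0.78, CA2 by 0.69, EGR3 by 0.61, CYP1B1 by 0.57, FOXA1 by 0.47, SNAI1 by 0.45, SPRY2 by 0.44 and CLDN7 by 0.31. Heregulin was the lower in PEG10, at -1.96, and TLR6, at -0.41.

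In genes that were not shared, heregulin exceeded TGF-alpha in HSD11B2 by 1.25, ERBB3 by 0.80, SLC30A1 by 0.77, SGK1 by 0.64, SCNN1A by 0.50 and NR3C2 by 0.41, and ERBB2 had a value of -0.54.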

How the results depend on the processing

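Leaving out 1 array at a time gave 126 to 308 shared higher and 172 to 415 shared lower genes, with the fewest without AP1510 replicate 2 or 3. The same refits gave 707 to 1425 higher and 757 to 1362 lower genes for the ligand mean, 396 to 619 higher and 422 to 704 lower for heregulin, and 136 to 218 genes in opposite directions. Without heregulin replicate 2, heregulin gave 452 lower. Array weights in the fit gave 449 shared higher and 524 shared lower genes, and 1273 higher and 1179 lower for heregulin; the weights of the heregulin arrays were 0.584, 0.322 and 4.62. Requiring a log2 difference of 0.58 with each ligand left 82 shared higher, 104 shared lower and 61 opposite genes. Treating the 6 ligand arrays as 1 group, so that the ligand difference entered the spread, left 151 higher and 217 lower. Under all other settings run these counts were within 1.5 times of those reported. Of the 97 named shared genes, 36 lost the shared call when some array was left out, 31 of them without AP1510 replicate 2 and 30 without AP1510 replicate 3. Over 2598 pairs of named gene and setting, no pooled difference that passed the threshold changed sign, 39 lost and 21 gained their call. No paired analysis was possible because the labels carry no replicate numbers shared between groups. Signal near background limits dim genes, for which no detection values were used here.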

Other observations

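Further lists held few shared genes, where 1.28% of all genes were shared and higher and 1.86% shared and lower. Of 22 genes of amino acid supply and the ATF4 response, TGF-alpha raised 15 above AP1510 (11.2% of all genes) and heregulin 1 (3.27% of all genes). That 1 was CEBPB, a transcription factor 1.40-fold higher in the ligand mean (adjusted p = 0.00073). CEBPB lost its shared call without AP1510 replicate 3. Glycolysis and hypoxia gave HK2, a hexokinase, 1.82-fold higher (adjusted p = 0.00012), out of 20, and the shared higher count was 2 without AP1510 replicate 1. Among 11 heat shock genes, HSPH1, a chaperone of the HSP110 family, rose 1.49-fold, and CRYAB, a small heat shock protein, measured 5.51, 5.63 and 5.51 with AP1510 and fell 1.98-fold (adjusted p = 1.8e-05). AP1510 itself was 0.75 above untreated in CRYAB (adjusted p = 0.0065).

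Of 19 mesenchymal and transition genes, 2 were shared and higher, TWIST1 and ZEB2, repressors of epithelial genes, with ZEB2 being 1.5-fold higher (adjusted p = 0.0044). SNAI1, another such repressor, was 1.55-fold lower (adjusted p = 0.00012). The higher count was 3 without AP1510 replicate 1, 1 without heregulin replicate 3, TGF-alpha replicate 2 or AP1510 replicate 3, and 0 without AP1510 replicate 2, heregulin replicate 1 or heregulin replicate 2. SNAI1 lost its shared call without AP1510 replicate 3 or heregulin replicate 3. Of 16 junction genes, CLDN4 and CLDN7, claudins of tight junctions, were shared and lower, CLDN4 by 1.59-fold (adjusted p = 0.0021). That count was 0 without AP1510 replicate 2 or AP1510 replicate 3 and 1 in 8 other refits, those without any 1 untreated or TGF-alpha array or heregulin replicate 1 or 2.

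Of 18 FOXO targets, 3 were shared and lower, TNFSF10, SESN3 and CCNG2, and 1, the insulin receptor substrate IRS2, was higher, by 0.37. CCNG2, a cyclin that slows the cell cycle, fell 1.48-fold (adjusted p = 0.00034). The lower count was 1 without AP1510 replicate 2, 2 without AP1510 replicate 3 or heregulin replicate 2, and 4 without heregulin replicate 3, and IRS2 lost its call in 5 of 12 refits, those without AP1510 replicate 1 or 3 or any 1 heregulin array. CYP1B1, a cytochrome that hydroxylates oestrogens, fell 1.82-fold. The fibroblast marker FAP and the endothelial marker KDR were each shared and higher, by 1.60-fold and 1.69-fold, while the defining collagen and cadherin markers of those lists were not shared.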
